A study of Drosophila melanogaster with 4 samples.

Results

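The regions described here were broad domains of trimethylated lysine 4 of histone H3 (H3K4me3), taken as peaks wider than 2000 bp on the autosomal arms 2L, 2R, 3L and 3R. There were 830 of them among the 5932 peaks of these arms (14.0%) and the 11572 peaks of the whole list. Peaks of 1000 to 2000 bp on the same arms, 2476 in number, served for comparison. The domains were chosen by 1 measured value, the width of the peak from start to end. Their width, and every value read from the same peaks, is therefore given as a description with no test.

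All material came from S2-DRSC, a male Drosophila melanogaster line that was derived from late embryos. Chromatin was fixed with 1.8% formaldehyde for 15 min. The study made 2 libraries from immunoprecipitation with a rabbit polyclonal antibody raised against a peptide of human histone H3 trimethylated at K4, and 2 libraries of input DNA, with no treatment or genotype separating them. The deposited list gives 1 start, 1 end and 1 score per peak and no value for a single library, so there is no spread between replicates, and the read depth is unknown. Intervals are 95% exact intervals that cover counting error only and treat peaks as independent.

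Nucleosomes just downstream of the starts of transcribed genes carry H3K4me3, placed by methyltransferase complexes of the Set1 and Trithorax families. Most marked regions span a few nucleosomes, and in mammals unusually broad ones are known from genes that set a cell's identity. Wide signal can also arise where marked units stand side by side. Fly genomes hold scattered copies of transposable elements, each family with its own near-constant full length, and the arm 2L holds the tandemly repeated histone genes. Sequence and genes of the build used by the list, FlyBase release 5, were not used here, so no gene or element is assigned to any domain.

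Chosen as the widest peaks, broad domains by construction held a larger share of the marked bases than of the peaks. They covered 2794 kb, 36.3% of the 7695 kb in autosomal peaks. At the median a domain was 2863.5 bp wide. The lower quartile lay at 2347 bp and the upper at 3970 bp. By width, 452 domains measured 2000 to 3000 bp, 253 measured 3000 to 5000 bp and 125 were over 5000 bp. The class over 5000 bp made up 15.1% of the domains and held 749 kb of their bases.

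The widest domain, 3L:3408435–3417934, spanned 9500 bp with a score of 357 and had another peak 213 bp away. It was followed by 3R:25625376–25634428 (9053 bp, score 322), 3R:19871516–19879670 (8155 bp, score 220) and 2R:3712984–3721120 (8137 bp, score 454). Next came 3R:21878546–21886303 (7758 bp, score 269) and 3R:24971492–24979099 (7608 bp, score 293). The other 4 of the 10 widest measured 7484 to 7509 bp with scores of 455 to 576, and they belong to a recurring shape described below.

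The limit of 2000 bp lay within a continuous range. The widest peaks left out were 2L:18698684–18700681 (1998 bp, score 141), 2R:5965926–5967923 (1998 bp, score 144) and 3R:20543205–20545201 (1997 bp, score 193). The narrowest taken in were 3L:12497286–12499286 (2001 bp, score 247), 3R:26248921–26250921 (2001 bp, score 194) and 3R:26634328–26636329 (2002 bp, score 159). The 71 peaks of 1900 to 2000 bp had a median score of 172, and the 67 of 2000 to 2100 bp one of 157.

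Scores were higher in broad domains than in the comparison peaks, with much overlap. The score is the authors' own value per peak, and the kind of quantity is not stated. Its median was 179 in broad domains (174 to 183) and 119 in peaks of 1000 to 2000 bp (116 to 123). A score of at least 100 was reached by 742 broad domains, 89.4% (87.1 to 91.4), against 64.1% of the comparison peaks (62.2 to 66.0) and 42.9% of all autosomal peaks. The overlap ran both ways: 148 broad domains (17.8%) scored below the median of the comparison peaks, and 395 of the 2476 comparison peaks scored above the median of the broad domains. Of the 10 highest scores on the 4 arms 9 belonged to broad domains, as did 79 of the highest 100 and 295 of the highest 500.

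**Figure D1:**
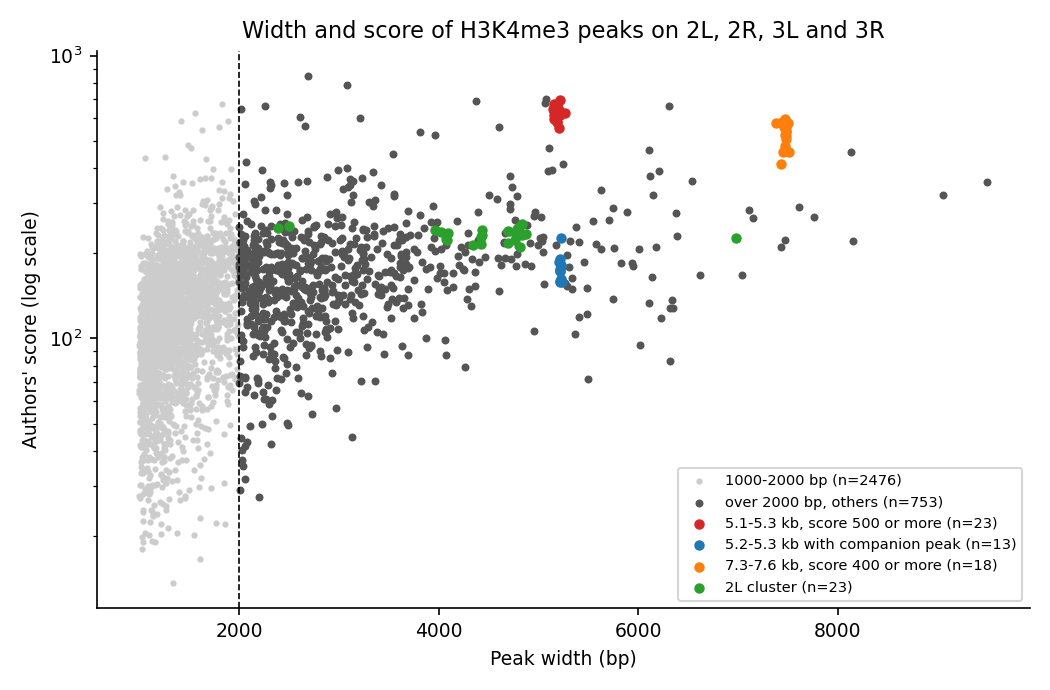
Width in bp against the authors' score (log scale) for the 2476 autosomal peaks of 1000 to 2000 bp in light grey and the 830 broad domains, each point 1 peak and the dashed line the limit of 2000 bp. Tight groups of red, blue and orange points mark 3 recurring shapes described in the text, green marks the cluster on 2L, and the other 753 domains are dark grey.

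Score rose across the 3 width classes of broad domains, while within each of them its correlation with width was weak. The median was 154 in domains of 2000 to 3000 bp (149 to 164), 198 in those of 3000 to 5000 bp (187 to 207) and 269 in those over 5000 bp (223 to 374). Over all broad domains Spearman's rank correlation of width and score was 0.404, described across peaks that share the same libraries. Within the classes it was 0.066, 0.170 and -0.130. The score per kb of width fell from a median of 90.0 in the comparison peaks to 64.4, 51.1 and 45.1 in the 3 classes.

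The 5 highest scores belonged to domains of 2690 to 5217 bp, and the 5 lowest to domains near the limit. The highest score of the 4 arms, 846, belonged to a domain of 2690 bp at 3L:16638322–16641011. It was followed by 2L:12434384–12437461 (3078 bp, score 785) and 2L:16141251–16146330 (5080 bp, score 703). The fifth highest, 692, was at 3L:12950977–12955351 (4375 bp), 46.1 kb from the nearest peak. The lowest scores of broad domains were 27.5 at 2L:3204772–3206972, 29.1 at 2R:15804447–15806451, 31.9 at 3R:893810–895867, 35.4 at 3L:24461994–24464030 and 37.1 at 3R:8968862–8970895. These 5 domains were 2005 to 2201 bp wide, near the limit, and the first 2 had another peak 57 and 53 bp away.

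Domains over 5000 bp were not spread evenly in width. Of the 125, 43 (34.4%) measured 5100 to 5300 bp, and 17 (13.6%) measured 7400 to 7500 bp. By contrast, 12 measured 5300 to 5500 bp and 6 measured 6400 to 7300 bp. The median over the 27 windows of 100 bp that held any domain was 2 domains. Inside these narrow ranges the score and the surroundings repeated as well, which gave 3 recurring shapes. Their bounds were set after the values were seen, so the counts below describe them and test nothing.

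**Figure D2:**
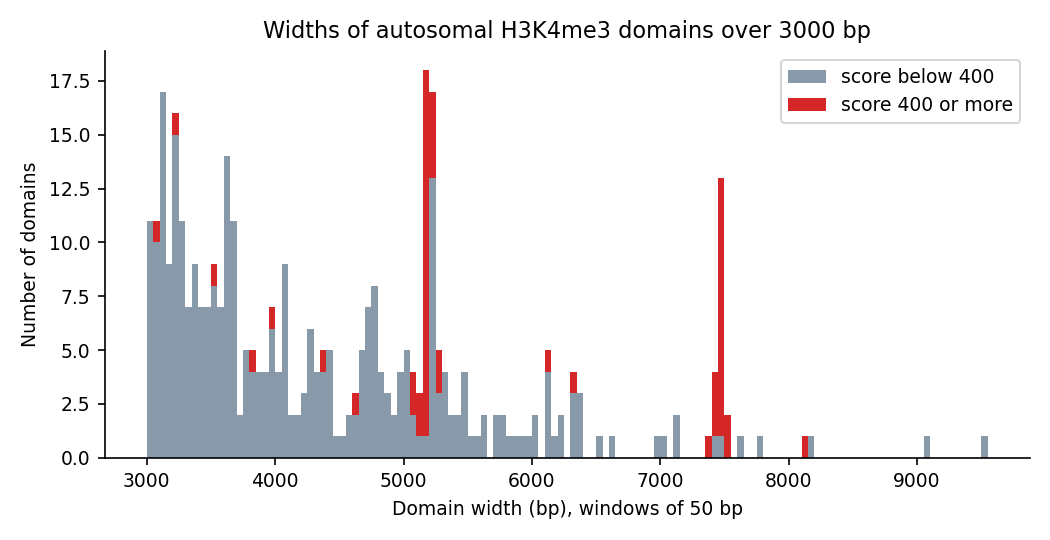
Number of autosomal domains over 3000 bp by width in windows of 50 bp, with domains scoring below 400 in grey and those at 400 or more in red. The counts fall with width but rise again at 5100 to 5300 bp, where 43 domains lie, and at 7400 to 7500 bp, where 17 lie.

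The first shape was an isolated, high-scoring domain of about 5.2 kb. It was defined as 5100 to 5300 bp with a score of at least 500, and 23 domains met it, 9 on 2L, 5 on 2R, 5 on 3L and 4 on 3R. Widths ran from 5144 to 5264 bp with a median of 5177 bp, and scores from 557 to 696 with a median of 636. None had another peak within 1 kb. The nearest other peak was 1.26 to 129 kb away, with a median of 29.9 kb, and 15 of the 23 had none within 20 kb. Examples are 2L:17819940–17825157 (5218 bp, score 617), whose neighbours lay 129 and 138 kb away, and 3R:27238832–27244048 (5217 bp), whose score of 696 was the highest of 3R. The domain 2R:12427188–12432344 (5157 bp) had the highest score of 2R, 654. The 23 domains were all among the 50 highest-scoring autosomal peaks, which follows in part from the score in their definition.

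The second shape was a domain of nearly the same width with a lower score and a fixed companion. It was defined as 5200 to 5300 bp, a score of 100 to 300 and a neighbour of 1100 to 1200 bp at a gap of 500 to 700 bp. Of the 13 that met it, 6 lay on 2L, 2 on 2R, 3 on 3L and 2 on 3R. Domain widths were 5209 to 5238 bp, a range of 29 bp, and scores 158 to 226 with a median of 173. The companion was 1128 to 1166 bp wide, scored 128 to 154, and lay 557 to 650 bp away. It came before the domain, in the direction of rising position, in 6 cases and after it in 7. From the outer edge of the domain to that of the companion the pair spanned 6903 to 7024 bp, with a median of 7012 bp. Such a companion was not confined to this width. Of the 25 broad domains that had one (3.01% of all), 13 were 5200 to 5300 bp wide and 12 were not. Among the 2476 comparison peaks 22 (0.889%) had one. Examples are 2L:15586458–15591680 (5223 bp, score 181) with a companion of 1155 bp 633 bp after it, and 3L:404526–409742 (5217 bp, score 176) with one of 1155 bp 639 bp before it.

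The third shape was an isolated domain of about 7.5 kb. It was defined as 7300 to 7600 bp with a score of at least 400, and 18 of the 20 autosomal peaks of that width met it. There were 9 on 2L, 3 on 3L, 2 on 2R and 4 on 3R. Widths ran from 7385 to 7509 bp with a median of 7475 bp, and scores from 414 to 594 with a median of 548. The nearest other peak was 1.56 to 84.8 kb away, with a median of 28.2 kb, and 11 of the 18 had none within 20 kb. On 2L the domain 11713581–11721058 (7478 bp, score 520) stood between peaks 145 and 84.8 kb away, the one before it a domain of the first shape at 2L:11563683–11568859 (5177 bp, score 629). The widest domain of 2L, at 347851–355354 (7504 bp, score 576), was of this shape too.

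**Figure D3:**
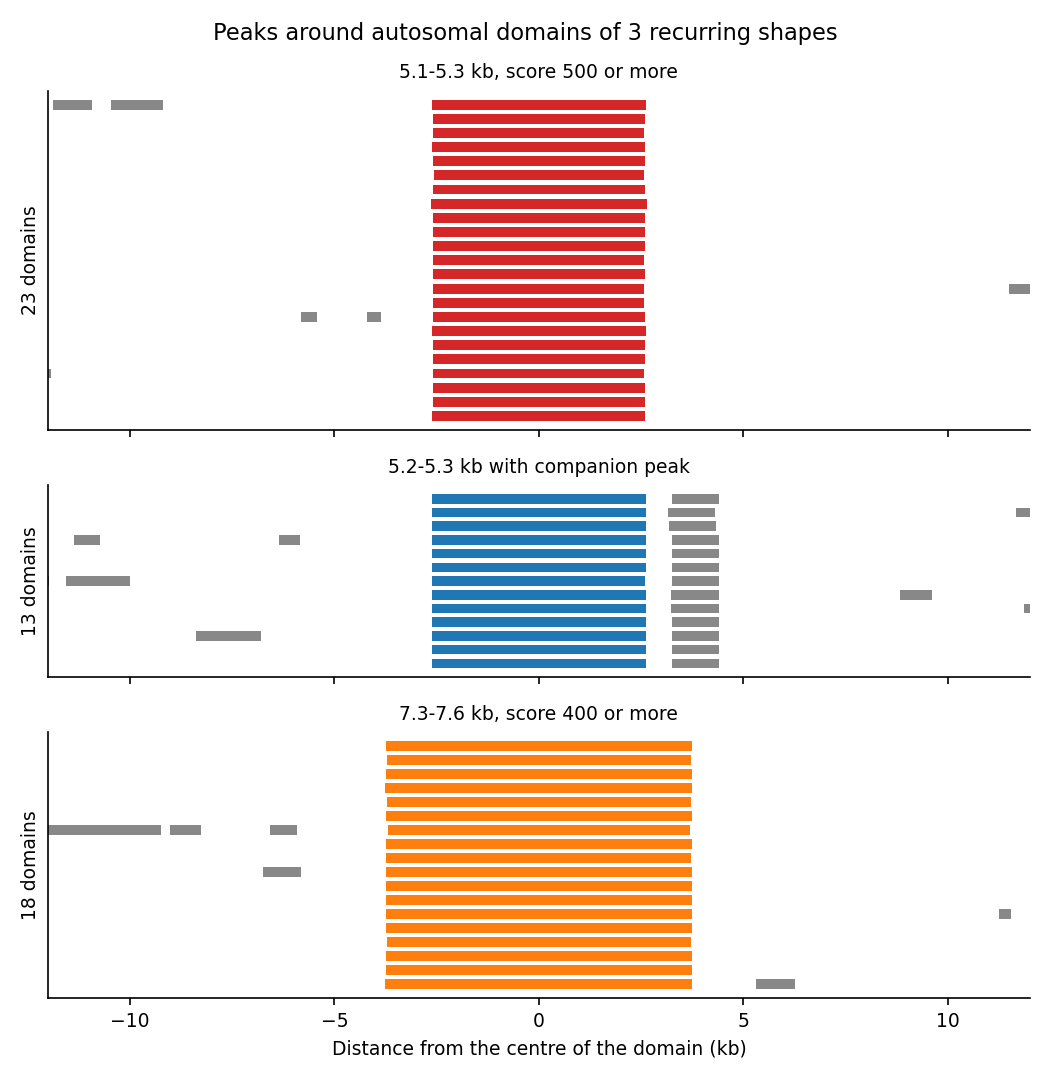
Peaks within 12 kb of the centre of each autosomal domain of the 3 recurring shapes, 1 domain per row and distance in kb. The 23, 13 and 18 domains are coloured and all other peaks grey, with the middle panel turned so that the companion is on the right. Every row of the middle panel has its companion at nearly the same place, while most rows of the other panels show no other peak.

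Peaks on other sequences of the same list also met the definitions. They share the libraries, and the bounds were set after the values were seen, so this is a description and no independent check. Of the 21 peaks of X over 5000 bp, 3 met the first definition, with widths of 5155 to 5199 bp and scores of 653 to 705. The median score of the 95 peaks of X over 2000 bp was 156, and the score in the definition sets the 3 above it. Another 3 peaks of X met the second definition, with widths of 5217 to 5229 bp, scores of 170 to 190 and pair lengths of 6998 to 7028 bp. No peak of X met the third. The sequences named Het, which hold heterochromatin, had 3 peaks of the first shape (scores 630 to 680), 1 of the second and 2 of the third (7384 and 7484 bp, scores 574 and 524). The sequence named U had 1 of the second, 5272 bp wide with a score of 199.7 and a companion of 1178 bp 635 bp away, and chromosome 4 had none of the 3 shapes. Whether any of these shapes lies on copies of 1 repeated sequence was not tested. Where copies of a sequence are identical, reads cannot be placed on 1 of them with certainty.

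The 3 shapes held 54 of the 125 domains over 5000 bp (43.2%). Of all 61 broad domains with a score of at least 400, 23 were of the first shape and 18 of the third. Of the 46 broad domains with no other peak within 20 kb, 15 were of the first and 11 of the third. Without the shapes and the 2L cluster described next, 70 domains over 5000 bp remained. Their median score was 217 (197 to 249) against 269 with them, and 10.0% of them scored at least 400 against 38.4%. The scores in the definitions of the first and the third shape make these values fall when the shapes are taken out. The share with another peak within 500 bp was 68.6% (56.4 to 79.1) against 39.2% (30.6 to 48.3). None of the 54 domains of the shapes had such a peak, in the second shape largely through the gap in its definition. Taking them out therefore raises this share. The share with none within 20 kb was 8.57% (6 domains, 3.21 to 17.7) against 25.6% (18.2 to 34.2).

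Broad domains also stood side by side, and the largest such group was on 2L. Joining domains with gaps under 10 kb between them gave 153 clusters of 2 or more, which together held 384 domains (46.3%). The largest, at 2L:21416354–21539523, held 23 domains among 33 peaks over 123 kb. Peaks covered 86.2% of it. Of the 23 domains 19 measured 4000 to 5000 bp, and the median width was 4439 bp. From the start of one domain to the start of the next the median step was 5048.5 bp, and 13 of the 22 steps were between 4800 and 5200 bp. Scores ran only from 210 to 254, a mean of 233 with an SD of 12.3 over the 23 domains, against an SD of 128 over all 830.

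Between the domains of this cluster lay 8 narrow peaks of up to 500 bp, with scores of 18.3 to 49.9. The other peaks that were not broad stood side by side and scored higher, 242 for one of 1235 bp at 21428882–21430116 and 140 for one of 790 bp at 21430196–21430985. Its last 12 domains, at 21481360–21539523, followed each other with no narrower peak between them, and those domains covered 96.0% of the 58.2 kb. A stretch of 9372 bp without a peak divided the cluster, and with a limit of 5 kb instead of 10 kb 18 domains remained together. As with the shapes, a tandem repeat in the sequence was not tested.

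**Figure D4:**
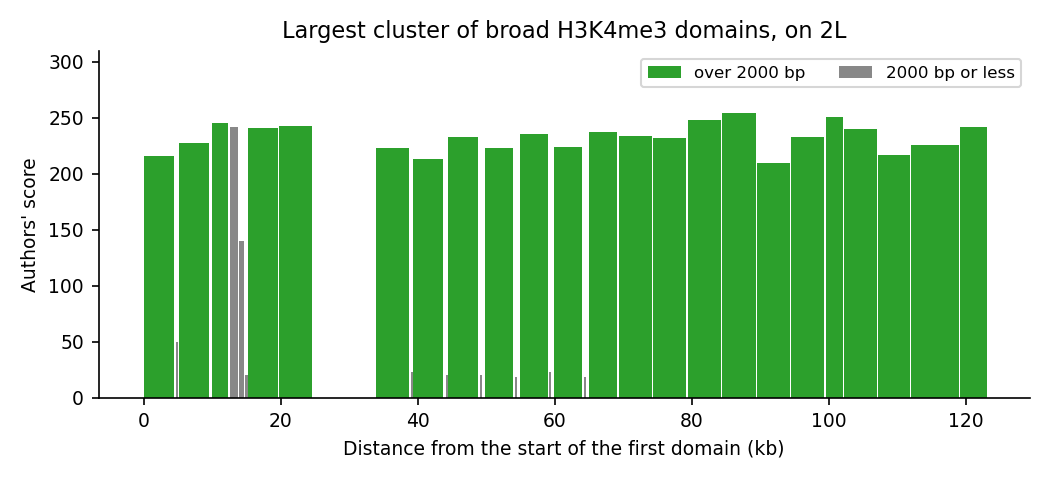
The 33 peaks of the largest cluster of broad domains, on 2L, by distance in kb from the start of the first domain, each bar as wide as its peak and as high as the authors' score. The 23 domains over 2000 bp, in green, score 210 to 254 and follow in steps of about 5 kb, and 10 narrower peaks (grey) lie between some of them, 8 with scores under 50 and the others at 140 and 242.

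Other clusters were smaller and less regular. The next was at 2R:19830001–19877313, with 7 broad domains among 8 peaks over 47.3 kb and scores of 98.0 to 250. The cluster at 3R:11156450–11198747 held 6 domains among 11 peaks over 42.3 kb (scores 93.6 to 180), and that at 3R:20873029–20895442 held 5 among 6 peaks over 22.4 kb (scores 143 to 276). In all, 15 clusters held 4 or more domains. Runs of successive broad domains, with no narrower peak between them, were mostly short: 557 domains stood alone, 94 runs had 2, 21 runs had 3, and the longer runs had 4, 6 and 12. The run of 6 was at 2R:19840312–19877313 and that of 4 at 3R:20876083–20895442.

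A broad domain had another broad domain as the peak before or after it in 273 cases, 32.9% (29.7 to 36.2). The share was 27.9% for comparison peaks (26.1 to 29.7) and 25.6% for all autosomal peaks. Without the shapes and the 2L cluster it was 32.4%. The shares rose with the score in both sets up to 300. At scores of 100 to 150 the share was 25.1% of broad domains and 27.9% of comparison peaks, at 150 to 200 it was 32.5% and 33.3%, and at 200 to 300 it was 46.5% and 44.8%. At like scores, then, a broad neighbour was about as frequent beside a peak of 1000 to 2000 bp as beside a broad domain.

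The distance from a broad domain to the nearest other peak, edge to edge, had a median of 412.5 bp (363 to 450). For the comparison peaks it was 464 bp (436 to 492). From centre to centre the medians were 2925 and 1883.5 bp, but that distance includes part of each peak's own width, which chose the domains. Among the 3731 autosomal peaks in the upper 5786 of the list by score the medians were 868 and 664 bp, edge to edge. In that subset, which leaves out low-scoring neighbours as well, the comparison peaks lay closer. Another peak within 500 bp was found for 458 broad domains, 55.2% (51.7 to 58.6), against 52.5% of the comparison peaks and 52.5% of all autosomal peaks, a share near the background. A peak within 1 kb on both sides was found for 171 broad domains, 20.6% (17.9 to 23.5), against 13.4% of the comparison peaks (12.1 to 14.8) and 15.1% of all autosomal peaks. Comparison peaks over 1500 bp came nearer to broad domains, at 18.04% (15.2 to 21.1), and these intervals overlap. Peaks up to 500 bp reached 18.4%. Without the shapes and the 2L cluster the share of broad domains was 20.2%. No other peak within 20 kb was found for 5.54% of broad domains (4.09 to 7.32), against 3.03% of the comparison peaks (2.39 to 3.78) and 4.53% of all autosomal peaks. Leaving out the shapes and the 2L cluster gave 2.66% (1.63 to 4.07), an interval that holds the value of the comparison peaks. Of the 46 domains behind the 5.54%, 15 were of the first shape and 11 of the third. Nothing was taken out of the comparison peaks.

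By class, the median distance was 407 bp in domains of 2000 to 3000 bp, 325 bp in those of 3000 to 5000 bp and 650 bp in those over 5000 bp. Without the shapes and the cluster the last value was 308.5 bp. No domain of the shapes had another peak within 500 bp, so taking them out lowers this median. The most isolated broad domain was 3R:6891352–6896979 (5628 bp, score 207), with 138 kb to the nearest peak. It belonged to none of the 3 shapes. The peak nearest to a broad domain had a median width of 1229 bp and a median score of 116, and in 635 cases (76.5%) it scored lower than the domain. The same held for 57.4% of the comparison peaks and 49.3% of all autosomal peaks. Broad domains scored higher as a set, so this share follows in part from the score difference given above. The nearest peak was up to 500 bp wide in 17.0% of cases (14.5 to 19.7), against 13.9% for the comparison peaks (12.6 to 15.3) and 18.4% for all autosomal peaks.

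**Figure D5:**
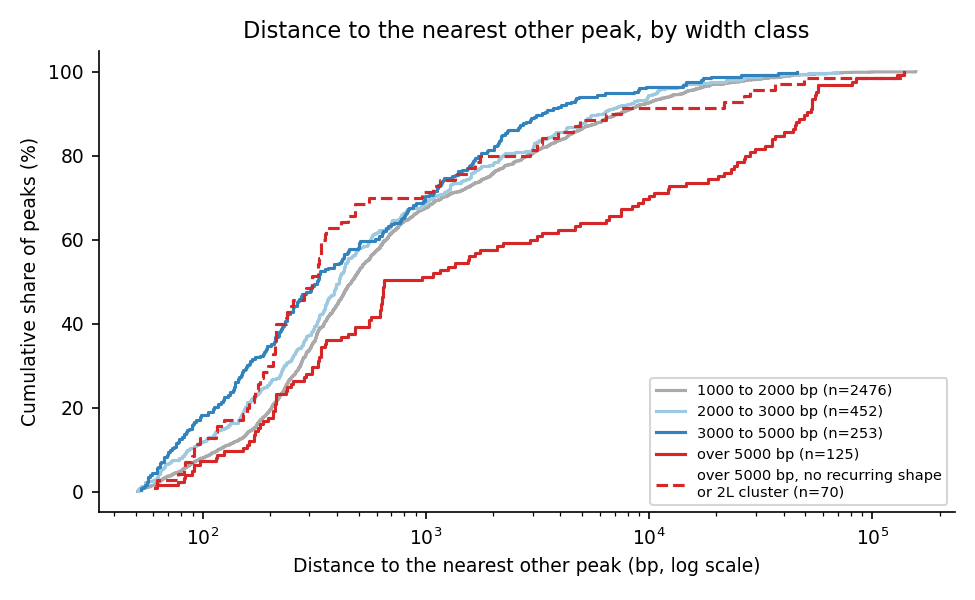
Cumulative share of peaks in percent against the distance to the nearest other peak in bp (log scale), for comparison peaks and the 3 classes of broad domains. The solid red line of domains over 5000 bp lies to the right, with 25.6% beyond 20 kb. The dashed line shows the 70 domains left without the recurring shapes and the 2L cluster. Of these, 8.57% (6 domains, 3.21 to 17.7) lie beyond 20 kb, against 1.19% to 3.03% in the other classes. Within 500 bp lie 68.6%, against 52.5% to 58.1%. No domain of the shapes lies within 500 bp of another peak, so leaving them out raises the share within 500 bp.

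Joining peaks closer than 500 bp took 458 broad domains (55.2%) together with another peak. It left 4105 regions on the 4 arms, of which 1368 (33.3%) were over 2000 bp. Of these, 372 were a single broad domain, 374 held a broad domain together with other peaks, and 622 held no broad domain at all and passed the limit by joining narrower peaks. The widest joined region, 58.2 kb at 2L:21481360–21539523, was the run of 12 domains described above.

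The arms differed in how many broad domains they carried. Counted over the stretch of each arm that the list spans, the number per Mb was 11.9 on 2R (10.5 to 13.5), 9.04 on 3R (7.96 to 10.2), 7.44 on 2L (6.36 to 8.64) and 6.35 on 3L (5.39 to 7.43). Without the shapes and the cluster these were 11.5, 8.68, 5.39 and 5.90, given without intervals. The values for 2L and 3L then rest on 124 and 144 domains and do not rank these arms. On 2L 24 of the 171 domains were of a recurring shape and 23 lay in the cluster, and 22.2% were over 5000 bp, against 9.92% of the 252 on 2R. Median scores of broad domains were 198 on 2L (179 to 217), 184 on 3L (173 to 199), 175 on 2R (166 to 182) and 171 on 3R (159 to 181). Without the shapes and the cluster they were 171, 180, 173 and 170. The comparison peaks were ordered otherwise, with medians of 103 on 2L, 116 on 3L, 127 on 2R and 124 on 3R.

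Results on neighbours held within each arm only in part. The share of broad domains next to a broad domain was 32.7% on 2L, 34.1% on 2R, 32.9% on 3L and 31.7% on 3R, against 22.1%, 32.4%, 24.8% and 29.9% for the comparison peaks of the same arms. The share with another peak within 500 bp was 55.6%, 54.8%, 49.0% and 59.1%, against 55.7%, 47.0%, 51.2% and 55.9%. A peak within 1 kb on both sides was found for 29.8% of broad domains on 2L, the arm of the cluster. On 2R, 3L and 3R the share was 16.3%, 17.4% and 20.6%. For the comparison peaks this share was not taken by arm.

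Along the arms broad domains were gathered in some stretches and rare in others. Successive domains were 41.8 kb apart at the median (34.4 to 51.3), with quartiles of 8.40 and 141 kb, and 7.63% of the 826 gaps were under 500 bp. In the 95 full bins of 1 Mb the count ran from 0 to 33 with a median of 8, and its variance was 3.68 times its mean. That ratio was 5.67 for comparison peaks and 6.67 for all autosomal peaks. Mean counts per bin were 8.49, 25.8 and 61.6. The ratio tends to rise with the mean, so these ratios do not rank how strongly the sets were gathered. Without the shapes and the cluster the ratio of the broad domains was 3.22. The count of broad domains and the count of all other peaks in a bin had a Spearman's rank correlation of 0.499 over these bins, which share the libraries.

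The fullest bin, 21 to 22 Mb of 2L, held 33 broad domains among 93 peaks, and 9 without the shapes and the cluster. The bins at 19 to 20 Mb and 3 to 4 Mb of 2R followed with 21 each. The bin at 9 to 10 Mb of 3R held none among its 37 peaks. A bin could be rich in peaks and poor in broad domains: at 13 to 14 Mb of 2L 1 of 68 peaks was broad. The longest stretches without a broad domain were 1582 kb at 2L:13222372–14803916, 1549 kb at 3R:8970896–10520017, 1198 kb at 3L:10059643–11257605 and 660 kb at 2R:19955980–20615551. They were not empty: they held 55, 65, 47 and 44 narrower peaks, the widest of them 1980, 1896, 1868 and 1909 bp. Median scores of those peaks were 66.6, 19.1, 48.5 and 57.3.

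In the 2 Mb next to the centromere, which is the right end of 2L and 3L and the left end of 2R and 3R, broad domains were 27.1% of the peaks on 2L, 14.4% on 2R, 13.3% on 3L and 13.75% on 3R. On the rest of each arm they were 10.4%, 16.8%, 11.2% and 15.0%. On 2L the 49 domains near the centromere include the 23 of the cluster. Median scores of broad domains near the centromere were 125 on 3R (22 domains) against 175 on the rest of that arm. On 3L they were 155 (12 domains) against 185, on 2R 172 (20 domains) against 176 and on 2L 232 against 178. These medians carry no interval, and those near the centromere of 2R, 3L and 3R rest on few domains.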

How the data were processed

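Sample titles give 2 immunoprecipitated and 2 input libraries; whether these came from separate cultures is not stated. Per the file headers, the 1 file holds peaks on FlyBase release 5 with MACS as source. MACS2, BWA, CASAVA 1.7.0.3 and 1.7.0.2, and the build BDGP5 appear without role or order in the submitters' processing notes. The score deposited by the authors is of an unstated kind, and the sources used here give no threshold, input or pooling. Peak starts count from 0 and are printed counted from 1. Distances were taken edge to edge within an arm; the smallest gap between autosomal peaks was 51 bp.

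Shares carry Clopper-Pearson intervals, densities Poisson intervals and medians order-statistic intervals. No test was run, since width chose the domains and no replicate values exist. Domains and comparisons were chosen with earlier results of these data known, and the recurring shapes and the 10 kb cluster limit after their values were seen. Named domains were the widest, highest, lowest and most isolated, those at the limit, and the longest runs and domain-free stretches; others are examples chosen after their values were seen. The gene table is of release 6, so no gene was assigned and no sequence was read. Alternatives changed the width limit, comparison set, score subset, joining, distance measure and bin size. The functions were tested on simulated data. Tools were matplotlib 3.10.9, scipy 1.17.1, pandas 2.3.3, numpy 2.4.6 and Python 3.11.15.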

Additional observations from a re-analysis of the deposited data

How the results depend on the processing

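Depth and values of single libraries are not part of the list, so their spread is unknown and neither library could be left out. No paired analysis was possible because single libraries have no values of their own. Of 92 alternatives over 19 results, 51 kept the value and 41 moved it. A share or median was kept inside its exact interval, and a count, correlation, ratio or base share within 1.5 times. Removing the shapes and the cluster, and changing their bounds, were chosen after seeing the data. Where values moved, the cause was not tested.

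With a limit of 1500 bp, broad domains were 25.5% of peaks, their median score was 163, 84.4% scored at least 100, 54.3% stood next to another, their median gap was 15.6 kb and the variance to mean ratio was 5.74. With 2500 bp the first 5 of these were 9.22%, 191, 94.1%, 26.0% and 72.6 kb. After joining peaks closer than 500 bp they were 33.3%, 159, 82.7%, 62.1% and 24.7 kb. Joining also gave 65.9% of peak bases, a median score of 102 for comparison regions, median distances of 2431 bp (broad) and 2149.5 bp (comparison), 486 domains of 3000 to 5000 bp and 295 over 5000 bp. By construction 0 joined domains had another within 500 bp. Among the 3731 autosomal peaks in the upper 5786 of the list by score, 21.8% were broad, 45.0% of broad domains stood next to another, 40.9% had a peak within 500 bp, the comparison score was 127, and the distances were 867.5 and 664 bp. Without the shapes and the cluster, 12.9% of peaks were broad, with a median score of 173 and 70 over 5000 bp. Comparison peaks of 1500 to 2000 bp had a median score of 146 and a distance of 420.0 bp, and those of 500 to 2000 bp 89.7 and 494 bp. From centre to centre the distances were 2925 bp (broad) and 1883.5 bp (comparison). A score of at least 150 was reached by 66.9% of broad domains, and 66.6% had a peak within 1000 bp. The counts of the first and the third shape were 19 to 25 and 14 to 23 under the bounds and lists tried. The second kept 13 with wider widths, 12 with both score bounds 100 lower and 1 with both 100 higher, so its count depends on the score range chosen for it. The largest cluster held 18 to 23 domains.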
